A study of Mus musculus with 9 samples.

Results

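The genes described here are 10 imprinted genes with roles in growth control: Grb10, Igf2r, Cdkn1c, Plagl1, Peg3, Ndn, H19, Meg3, Gnas and Impact. They were taken by symbol from an RNA sequencing table of mouse bone marrow progenitors and make up 10 of its 16537 genes, or 21 of its 21388 RefSeq transcripts, which were summed per gene. The group was chosen by a measured value, the loss of Grb10 counts in leukemic progenitors against normal ones in these same libraries. For the comparisons with normal progenitors, their values are therefore given as a description, with no p-value. The fit over all genes covers these comparisons too. Its calls for the 10 genes are counted beside the share over all genes, and again within their clusters, with nothing read from them. The comparison between the leukemic groups was not part of the rule of choice and is given with its test. Earlier results of these data were known at the choice, and Grb10 and Ndn entered that test through their level in HPC.

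The table holds 9 libraries from bone marrow of FVB/NJ mice, an inbred strain, in 3 groups of 3. Normal cells were hematopoietic progenitors (HPC), taken at postnatal day 42 from wild-type animals. Leukemic progenitors (LP) came from mice of genotype PML-RAR, which carry the fusion of PML and the retinoic acid receptor alpha known from acute promyelocytic leukemia, at an early phase or at a median phase. No age in days is given for the LP mice, and neither the promoter that drives the transgene nor the surface markers of the sort are given in the sources used here. Whether the 3 libraries per group stem from different mice is not stated, and a p-value here is set against library-to-library spread that may be technical. Because all mice are of the same inbred strain, reads from the maternal and the paternal copy cannot be told apart, and every value below is the sum of both copies.

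An imprinted gene is expressed mainly from the copy inherited from a given parent, because DNA methylation laid down in the egg or sperm marks the copies differently. Imprinted genes lie in clusters, each under an imprinting control region, and many of them restrain or promote growth of the fetus. Several were described as part of a network of imprinted genes active in stem and progenitor cells, where Cdkn1c and Grb10 are known for holding back proliferation. As a rule of thumb, maternally expressed members such as Grb10, Igf2r, Cdkn1c and H19 limit growth. Paternally expressed members such as Peg3 and Impact have more varied roles.

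Promoter sequences are shown for Grb10 and Gnas, because their values are given by transcription start, and for Igf2r and Plagl1, as a gene that stood lower and a gene that stood higher in LP. They are RefSeq windows on GRCm38.p6, from 250 bases before to 50 bases after a transcription start, printed 5′ to 3′ on the strand of the gene. Capitals mark CG dinucleotides, the kind of site at which imprint methylation is found. Whether any of these windows carries an imprint was not tested.
Grb10 upstream start, chr11:12037371-12037670, minus strand: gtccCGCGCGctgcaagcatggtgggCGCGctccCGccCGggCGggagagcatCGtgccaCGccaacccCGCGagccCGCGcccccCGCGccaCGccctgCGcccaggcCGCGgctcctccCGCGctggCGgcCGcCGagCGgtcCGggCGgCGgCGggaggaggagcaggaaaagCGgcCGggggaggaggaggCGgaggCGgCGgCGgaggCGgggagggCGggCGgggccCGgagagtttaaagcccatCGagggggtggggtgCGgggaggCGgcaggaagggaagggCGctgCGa
Grb10 downstream start, chr11:12027922-12028221, minus strand: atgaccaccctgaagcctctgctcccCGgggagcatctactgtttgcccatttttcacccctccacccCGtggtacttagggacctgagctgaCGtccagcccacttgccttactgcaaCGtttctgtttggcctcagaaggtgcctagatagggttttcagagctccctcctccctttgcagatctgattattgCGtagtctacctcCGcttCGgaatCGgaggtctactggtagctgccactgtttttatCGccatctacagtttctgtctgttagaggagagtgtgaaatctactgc
Igf2r, chr17:12769657-12769956, minus strand: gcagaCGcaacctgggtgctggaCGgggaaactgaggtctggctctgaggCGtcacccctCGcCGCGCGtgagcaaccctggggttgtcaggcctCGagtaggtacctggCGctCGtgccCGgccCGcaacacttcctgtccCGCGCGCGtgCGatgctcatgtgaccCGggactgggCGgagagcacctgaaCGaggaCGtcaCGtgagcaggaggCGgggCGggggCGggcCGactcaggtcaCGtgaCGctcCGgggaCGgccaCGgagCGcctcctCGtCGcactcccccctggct
Plagl1, chr10:13090582-13090881, plus strand: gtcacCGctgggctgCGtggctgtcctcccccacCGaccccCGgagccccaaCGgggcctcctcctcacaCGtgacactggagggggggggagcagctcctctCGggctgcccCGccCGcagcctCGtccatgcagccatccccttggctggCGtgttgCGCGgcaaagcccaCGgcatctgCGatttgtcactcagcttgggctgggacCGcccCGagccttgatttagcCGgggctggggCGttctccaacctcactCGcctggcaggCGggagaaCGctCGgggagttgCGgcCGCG
Gnas Nesp start, chr2:174284070-174284369, plus strand: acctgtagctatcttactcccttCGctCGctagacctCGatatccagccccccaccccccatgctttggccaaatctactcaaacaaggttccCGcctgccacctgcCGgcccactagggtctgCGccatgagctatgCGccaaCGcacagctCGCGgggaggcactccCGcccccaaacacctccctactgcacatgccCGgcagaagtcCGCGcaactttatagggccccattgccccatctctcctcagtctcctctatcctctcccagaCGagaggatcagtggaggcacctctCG
Gnas Gs-alpha start, chr2:174329756-174330055, plus strand: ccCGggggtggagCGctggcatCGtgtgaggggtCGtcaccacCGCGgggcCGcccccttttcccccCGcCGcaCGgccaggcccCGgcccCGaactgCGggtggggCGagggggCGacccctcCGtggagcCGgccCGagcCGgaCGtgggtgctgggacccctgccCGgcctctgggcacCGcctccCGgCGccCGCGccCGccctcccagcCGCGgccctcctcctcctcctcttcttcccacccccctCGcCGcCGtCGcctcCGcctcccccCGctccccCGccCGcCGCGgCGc

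The Grb10 upstream window held 45 CG dinucleotides, and 1.93% of the 32851 windows in the RefSeq table held as many. The downstream Grb10 window held 9, which 45.8% of windows reached, close to the median of 7. The Gs-alpha start of Gnas held 40 (reached by 3.91% of windows), Igf2r 34 (7.73%), Plagl1 26 (16.9%) and the Nesp start of Gnas 16 (33.0%). The window of Ndn, which also stood lower in LP and is not printed, held 11 (41.4%). The genes that stood lower in LP thus ranged from CG-rich windows to a window near the median. The hexamer TGCCGC, bound by the imprint-keeping factor Zfp57 when methylated, was searched on both strands. It was present in 3 of the 12 windows that the table holds for 7 of the genes (Grb10 upstream, Plagl1 and Meg3) and in 11.6% of all windows. No window was in the table for Cdkn1c, H19 and Impact.

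Levels are given in CPM, counts per 1 M (mega) of a library's counts after TMM scaling, as mean ± SD of n = 3 libraries. Comparisons between genes use FPKM, which also divides by transcript length. Recovered depth was 20.6 to 28.4 M (mega) fragments per library. A gene was called where the p adjusted by Benjamini and Hochberg was under 0.05 in edgeR's quasi-likelihood test, fitted on the 12837 genes that passed a filter on low counts. Of the 10 genes 7 passed that filter, and H19, Peg3 and Meg3 did not. Grb10 and Ndn passed it through their level in HPC. Library HPC 3 had lower counts of genes with long transcripts than the other HPC libraries, by a log2 difference of long minus short genes of -0.28 against 0.12 and 0.16.

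**Figure D1:**
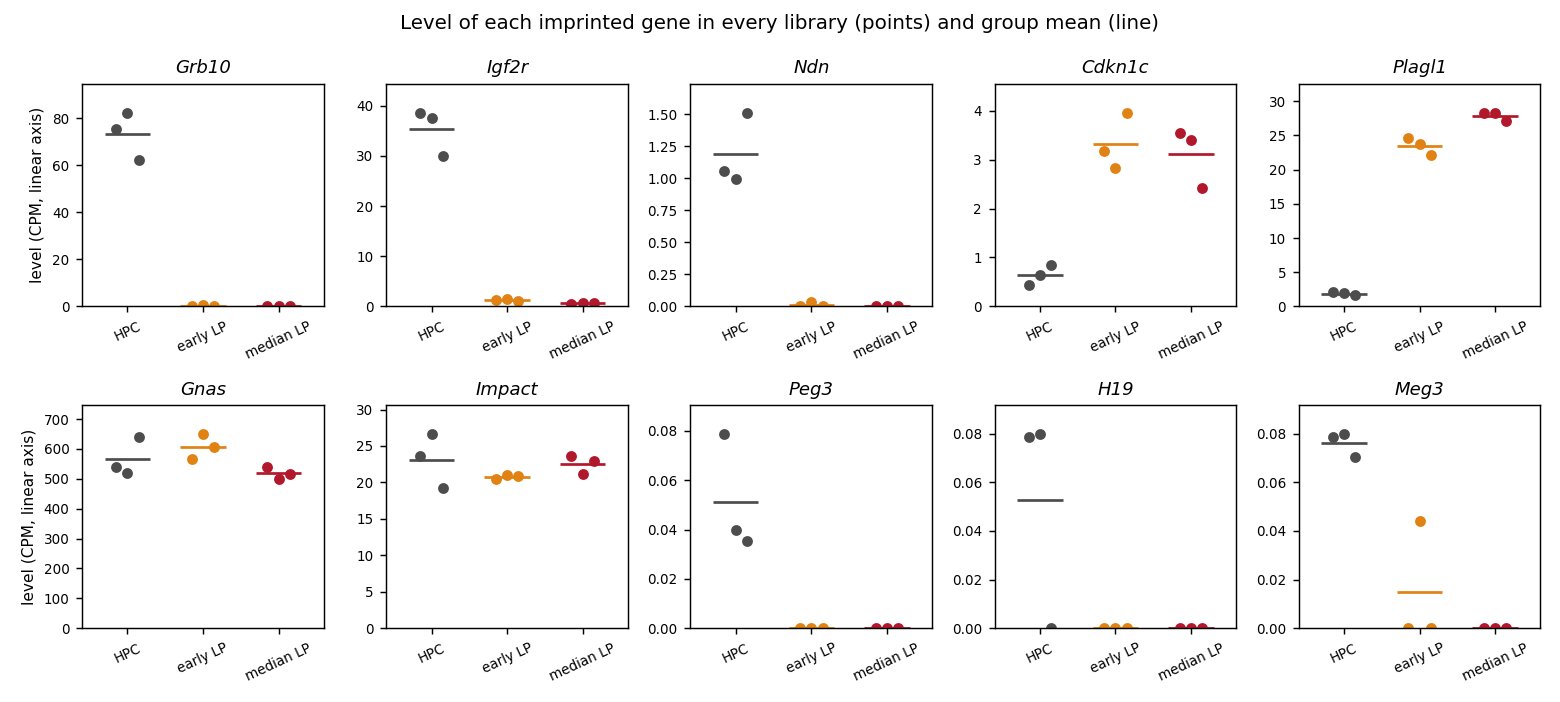
Level of each of the 10 genes in CPM (linear axis from 0, a scale of its own in each panel) in HPC, early LP and median LP, with each library as a point and the group mean as a line (n = 3 libraries per group). Grb10, Igf2r and Ndn stood higher in HPC than in LP, and Cdkn1c and Plagl1 stood higher in both LP groups. Gnas and Impact kept similar ranges, and Peg3, H19 and Meg3 were under 0.1 CPM in every library.

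Against HPC, 3 of the 7 tested genes were called lower in both LP groups (Grb10, Igf2r and Ndn), 2 were called higher in both (Cdkn1c and Plagl1), and 2 were not called in either (Gnas and Impact). In early LP 37.9% of all tested genes were called lower and 35.3% higher against HPC, and in median LP 37.7% and 36.0%. These wide changes, 73.2% of genes called in early LP and 73.8% in median LP, are the background on which 5 of 7 stand. Because the genes were chosen on this contrast, and Grb10 and Ndn passed the filter through HPC, these counts support no statement about the genes. The groups did not overlap for 5 of the 7 genes in either comparison, where 74.8% (early) and 75.7% (median) of all tested genes did not. The median log2 change of the 7 genes was -0.15 in early and -0.13 in median LP, against -0.04 in both over all genes, and setting Ndn to its bound leaves these medians as they are, since it stays below them. Without library HPC 3 the early comparison gave 3 higher and 4 lower, as Gnas (0.20) and Impact (-0.27) then passed the threshold. In median LP 4 were lower with no filter on low counts, where Meg3 was added, and 4 with a covariate for transcript length, where Gnas was added (-0.12).

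**Figure D2:**
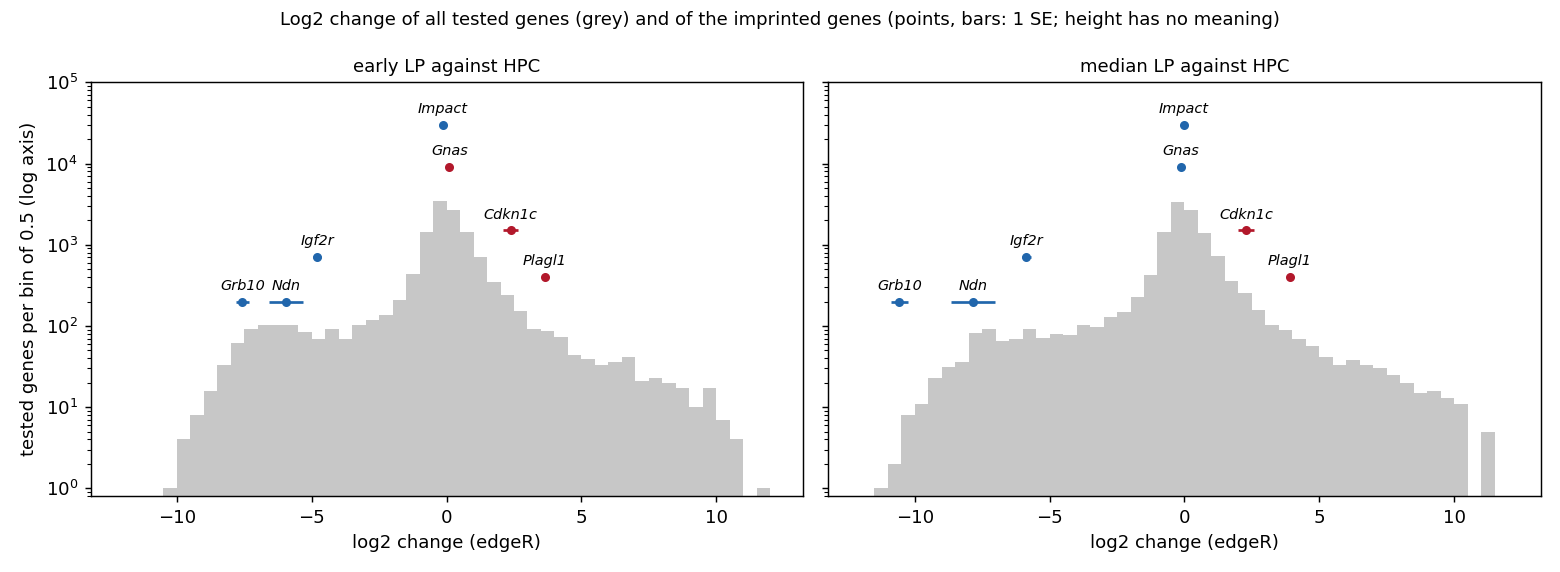
Log2 change against HPC of all 12837 tested genes (grey bars, genes per bin of 0.5 on a log axis) and of the 7 tested imprinted genes (points, bars of 1 SE, with a height that carries no value), for early LP on the left and median LP on the right. Grb10 lies in the low tail at -7.57 and -10.57, Plagl1 on the high side at 3.65 and 3.90, and Gnas and Impact within 0.15 of 0.

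Grb10 and Igf2r are brakes on growth factor signalling at the cell surface. Grb10 (chr11:11930499-12037420, mm10) encodes an adaptor that binds activated insulin and IGF1 receptors, and also Kit, and dampens their signal. Its level in the HPC libraries was 75.4, 82.3 and 62.2 CPM. In early LP it was 0.205, 0.689 and 0.257 CPM, and in median LP 0.0771, 0.0435 and 0 CPM. Every HPC library was far above every LP library, and every early LP library above every median LP library. Means of the HPC, early and median groups were 73.3 ± 10.2, 0.384 ± 0.265 and 0.0402 ± 0.0386 CPM. The fitted log2 change was -7.57 (SE 0.24) in early and -10.57 (SE 0.32) in median LP. In fragments, 5753 were counted over the HPC group, 28 over early LP and 3 over median LP. That makes HPC 173-fold higher than early LP (95% exact counting interval 120 to 261) and 1791-fold higher than median LP (612.5 to 8687). All such intervals cover counting error only. In bulk samples, fewer cells that express a gene and less RNA per cell cannot be told apart.

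Grb10 has 2 transcripts in the table, and in HPC 98.3% ± 1.31 of its level was assigned to the one that begins at the CG-rich upstream start. In LP too few fragments remained to give a share. The 5 genes whose profile over the 9 libraries was closest to that of Grb10, by Euclidean distance of centred log2 CPM among 10573 genes with at least 5 CPM in a group, were Smo (distance 1.39), Pklr (1.59), Atp1b2 (1.62), Car1 (1.67) and Myh10 (1.75). Car1, a red cell carbonic anhydrase, had 1577 ± 203 CPM in the HPC group, 6.08 ± 1.38 in the early and 1.66 ± 0.278 in the median LP group. Pklr, the pyruvate kinase of red cells and liver, stood at 107 ± 5.83, 0.331 ± 0.0768 and 0.0670 ± 0.0204 CPM. Markers of other cells moved with the same groups. The summed level of 13 erythroid markers ran from 3772 to 4121 CPM over HPC libraries, 194 to 211 over early LP and 318 to 412 over median LP. That of 8 megakaryocyte markers was 139 to 178, 10.4 to 14.2 and 9.51 to 12.4 CPM, and that of 17 stem and multipotent progenitor markers was 1188 to 1344, 264.8 to 265.2 and 247 to 263 CPM. None of these markers was at 0 in any group. The sums in LP are carried by a few genes, Kit among the stem cell markers and the transferrin receptor gene Tfrc (438 ± 53.7, 181 ± 12.97 and 180 ± 12.7 CPM) among the erythroid ones. The median log2 change of single markers was -7.48 in early and -7.76 in median LP for the erythroid list, -6.37 and -7.35 for the stem cell list and -5.34 and -5.94 for the megakaryocyte list, against -0.04 over all genes. All 12 tested erythroid markers were called lower in early LP, and in median LP 10 were, while Hba-a1 (26.3 ± 9.30, 3.76 ± 1.67 and 156 ± 38.6 CPM) and Alas2 (1.85 ± 0.428, 0.192 ± 0.0336 and 5.85 ± 0.986 CPM) were higher than in HPC. The 11 promyelocyte and neutrophil markers summed to 15895 to 19768 CPM in HPC and to 39459 to 48470 in the LP groups, with 6 called higher and 2 lower in each. The lower ones were the secondary granule genes Ltf (445 ± 118, 168 ± 20.7 and 54.8 ± 8.17 CPM) and Ngp (663 ± 225, 239 ± 17.9 and 145 ± 21.1 CPM). The part of these cell types in the values of Grb10, and of the other genes described here, was not tested.

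Igf2r (chr17:12682406-12868143) encodes the receptor that carries mannose-6-phosphate tagged enzymes to lysosomes and removes the growth factor IGF2. Its HPC libraries stood at 38.6, 37.6 and 29.96 CPM. The early LP libraries stood at 1.23, 1.45 and 1.13 CPM and the median LP libraries at 0.462, 0.696 and 0.644 CPM. As with Grb10, no library of a group overlapped another group, and the order was HPC, early LP, median LP. Means were 35.4 ± 4.72, 1.27 ± 0.163 and 0.601 ± 0.123 CPM, and the log2 changes against HPC were -4.80 (SE 0.16) in early and -5.86 (SE 0.18) in median LP. HPC was 27.2-fold higher than early LP in fragments (22.0 to 34.1) and 59.0-fold higher than median LP (43.8 to 81.3). Igf2r overlaps the antisense RNA Airn and the gene Mas1, and use of strand in the counting is not given in the sources used here, so reads of these genes in the shared stretch cannot be told apart.

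Cdkn1c (chr7:143458339-143461050) encodes the Cip/Kip inhibitor of cyclin-dependent kinases that is known for keeping hematopoietic stem cells quiescent. It was low in HPC, at 0.432, 0.638 and 0.844 CPM. Early LP had 3.18, 2.83 and 3.96 CPM, and median LP 3.54, 3.39 and 2.42 CPM. All 6 LP libraries were above all 3 HPC libraries, and the LP groups overlapped. Means were 0.638 ± 0.206, 3.32 ± 0.578 and 3.12 ± 0.613 CPM, with log2 changes of 2.37 (SE 0.27) and 2.28 (SE 0.28). These rest on 51 fragments in the HPC group, 217 in early LP and 230 over median LP. The ratios were 5.05 (3.71 to 6.99) and 4.83 (3.55 to 6.68). The genes of most similar profile were Zbtb8a (distance 0.620), Itgb5 (0.629), Mt1 (0.630), Socs2 (0.641) and Dhrs7 (0.664). Socs2, a feedback inhibitor of cytokine receptors, went from 3.33 ± 0.312 CPM in HPC to 15.1 ± 0.753 in early and 15.6 ± 0.863 in median LP.

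Plagl1 (chr10:13090788-13131695) encodes a zinc finger transcription factor that arrests the cell cycle and is known for regulating other imprinted genes, Cdkn1c among them. It stood at 2.04, 1.91 and 1.65 CPM in HPC. It reached 24.6, 23.8 and 22.1 CPM in early LP and 28.3, 28.2 and 27.1 CPM in median LP. The 3 groups did not overlap, and the libraries of each lay close together. Means were 1.87 ± 0.198, 23.5 ± 1.29 and 27.9 ± 0.707 CPM. The log2 changes against HPC were 3.65 (SE 0.11) and 3.90 (SE 0.11). In fragments, early LP was 12.7-fold (10.7 to 15.1) and median LP 14.98-fold (12.7 to 17.8) above HPC. Peg3 (chr7:6705960-6730419), a second zinc finger factor and a defining gene of the paternal set, gave 2, 1 and 1 fragments in HPC and 0 in every LP library. With 4 fragments in all it was too low for a test or for a profile, and HPC was at least 1.12-fold above early LP and 1.25-fold above median LP.

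Ndn (chr7:62348277-62349927) encodes necdin, a growth-suppressing protein of the MAGE family that is known for a role in quiescence of hematopoietic stem cells. It was low in HPC, at 1.06, 0.996 and 1.51 CPM. A single early LP library held 0.0362 CPM, and the other two early LP libraries and all 3 median LP libraries were at 0. HPC therefore did not overlap LP. The fragment counts were 95 in the HPC group, 1 in early LP and 0 over median LP, which makes HPC 80.0-fold higher than early LP (14.0 to 3194) and at least 29.6-fold higher than median LP, against a floor of 3 fragments over the group. The fitted log2 changes, -5.95 (SE 0.63) and -7.84 (SE 0.80), depend on the prior count at such levels.

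H19 and Meg3 are long noncoding RNAs of the maternal copy, H19 beside Igf2 and Meg3 in the Dlk1-Meg3 cluster that is known for its part in fetal hematopoietic stem cells. H19 (chr7:142575532-142578146) gave 2, 2 and 0 fragments in HPC and none in LP, so the groups overlapped at 0. Meg3 (chr12:109540996-109571729) gave 2 fragments in every HPC library, 1 over early LP and 0 over median LP. The ratio of HPC to early LP was 5.05 with a counting interval of 0.613 to 232, which includes 1, and HPC was at least 1.87-fold above median LP. For H19, HPC was at least 1.12-fold above early LP and 1.25-fold above median LP. Every Meg3 value in HPC was above every value in LP, on 6 fragments against 1 and 0, and neither RNA entered the test. The H19 and Peg3 entries each carry 2 gene identifiers in the reference, so they may hold more than a single gene model.

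Gnas (chr2:174281237-174346742) encodes Gs-alpha, the G protein subunit that couples receptors to adenylyl cyclase, and shares its last exons with transcripts from other starts. It was the most abundant of the 10 genes per length in all 3 groups. Its libraries stood at 539, 519 and 640 CPM in HPC, 566, 648 and 608 in early LP, and 540, 500 and 516 in median LP. HPC overlapped both LP groups, and the lowest early LP library was above the highest median LP library. Means were 566 ± 64.9, 607 ± 41.4 and 519 ± 20.05 CPM, with log2 changes of 0.10 (SE 0.09) in early and -0.13 (SE 0.09) in median LP, neither called.

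Within Gnas the starts did not move together. Transcripts from the Nesp start, which encode a secretory protein from the maternal copy, stood at 3.68, 4.05 and 6.11 CPM in HPC. They stood at 0.103, 0.0731 and 0.206 CPM in early LP and at 0.155, 0.0436 and 0.283 CPM in median LP. HPC did not overlap LP, and the LP groups overlapped. With 369 fragments in the HPC group, 8 in early LP and 12 over median LP, HPC was 38.9-fold (19.5 to 90.7) and 28.7-fold (16.2 to 56.1) higher. The antisense RNA Nespas, which runs across the same stretch, gave 28 fragments in HPC (0.356 ± 0.102 CPM) and 0 in every LP library. HPC was thus at least 7.86-fold higher than early LP and at least 8.72-fold higher than median LP, and without known strand use the Nesp and Nespas reads cannot be told apart where they overlap. By contrast the Gs-alpha start stood at 357 ± 35.7, 363 ± 32.3 and 321 ± 22.8 CPM. The noncoding exon 1A start, active on the paternal copy, stood at 204 ± 28.1, 244 ± 32.1 and 198 ± 6.05 CPM. These starts carry almost all of Gnas, and their groups differed by at most 1.26-fold. All levels by start rest on the authors' assignment of reads to transcripts that share exons. Transcripts from the XL start, which encode an extra-large Gs-alpha, were near the floor, at 27 fragments in the HPC group, 2 in early LP and 0 over median LP.

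The Gs-alpha start gives a long and a short protein form, which differ mainly by an alternative 45-base exon (chr2:174336747-174336791, plus strand) that adds residues to the linker between the protein's domains. The exon is the only one of the longer transcript that has no counterpart in the shorter.
Gnas alternative exon: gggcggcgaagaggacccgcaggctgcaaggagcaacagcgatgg
The transcript with this exon made up 31.1, 29.9 and 32.0% of the pair in HPC. Its share was 59.6, 57.1 and 57.3% in early LP and 57.1, 55.1 and 55.6% in median LP. The lowest LP share was well above the highest HPC share, while the LP groups overlapped. Mean shares were 31.0% ± 1.05, 58.0% ± 1.38 and 55.9% ± 1.01 (SD, n = 3 libraries). The shares rest on the authors' assignment of reads to overlapping transcripts, which also differ at their ends and by 3 bases at the start of the next exon.

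**Figure D3:**
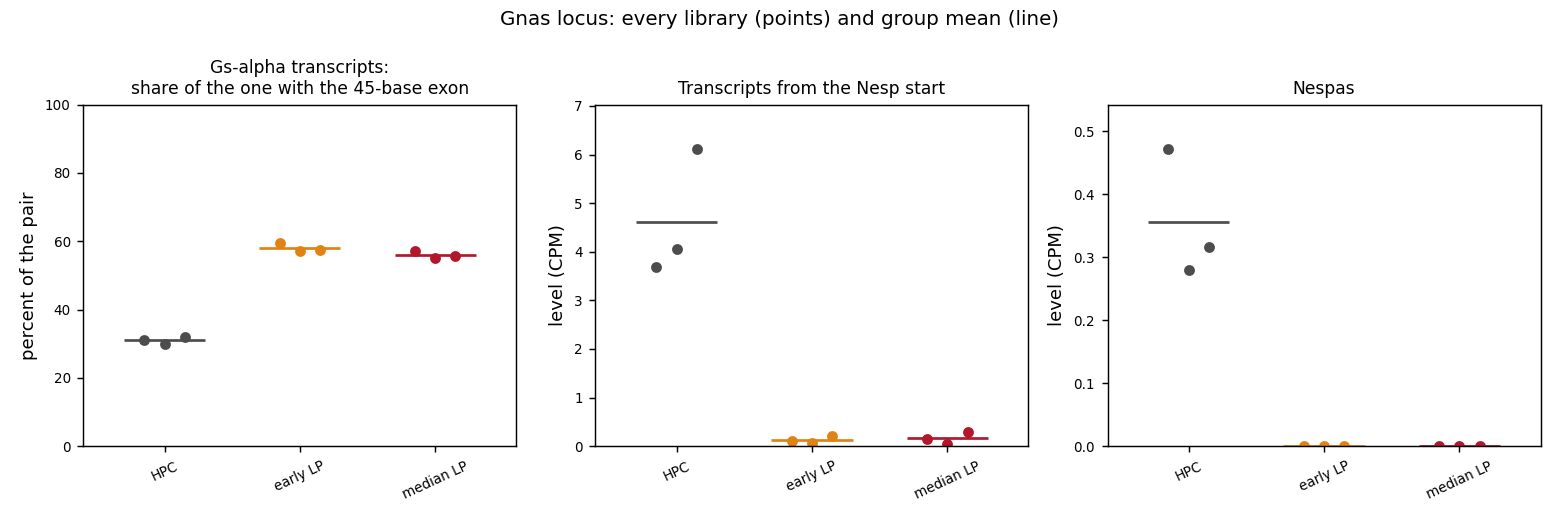
Gnas locus in HPC, early LP and median LP, with each library as a point and the group mean as a line (n = 3). The share of the Gs-alpha pair that holds the 45-base exon (percent, left) was 29.9 to 32.0% in HPC and 55.1 to 59.6% in LP. Transcripts of the Nesp start (CPM, middle) and Nespas (CPM, right) stood higher in HPC than in LP, with Nespas low throughout.

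Impact (chr18:12972252-12992948) encodes a protein that binds Gcn1 and restrains the eIF2alpha kinase Gcn2. Its level was 23.6, 26.6 and 19.2 CPM in HPC, 20.5, 21.1 and 20.9 in early LP, and 23.7, 21.1 and 23.0 in median LP. HPC spanned the values of both LP groups. Means were 23.1 ± 3.71, 20.8 ± 0.305 and 22.6 ± 1.33 CPM, with log2 changes of -0.15 (SE 0.11) and -0.03 (SE 0.11), neither called.

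Per length, the order of the 10 genes changed between groups. In HPC it was Gnas (328 FPKM), Grb10 (12.4), Impact (6.07), Igf2r (3.11), Ndn (0.754), Plagl1 (0.362) and Cdkn1c (0.342), followed by Meg3 (0.0291), H19 (0.0171) and Peg3 (0.00564). Plagl1 and Cdkn1c overlapped there, as did Meg3 and H19, and H19 and Peg3. In early LP, Gnas (349 FPKM) was followed by Impact (5.24), Plagl1 (4.37), Cdkn1c (1.74), Igf2r (0.109) and Grb10 (0.0653), of which Igf2r and Grb10 overlapped. In median LP the order was Gnas (293 FPKM), Impact (5.48), Plagl1 (5.09), Cdkn1c (1.63), Igf2r (0.0504) and Grb10 (0.00690), with overlap between Impact and Plagl1. Grb10 thus went from the second place to the sixth, and Plagl1 from the sixth to the third.

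Between the leukemic groups none of the 7 tested genes was called in median against early LP by edgeR, where 2.48% of all genes were called (0.997% lower, 1.48% higher). Unadjusted, 4 of 7 had p under 0.05 in edgeR's test. No share over all genes is given for that threshold, so nothing is read from this count. The groups did not overlap for 5 of 7, against 26.2% of all tested genes. For Impact this rests on 21.058 CPM in early LP replicate 2 against 21.1 CPM in median LP replicate 2. Nothing is read from the count of genes without overlap. Grb10 was lower in median LP by a log2 change of -3.0 (SE 0.81), with an adjusted p of 0.0854 in edgeR's test and 0.0141 in DESeq2. Its early LP libraries ran from 0.205 to 0.689 CPM, and the comparison rests on 28 against 3 fragments. Of the 28, a single early LP library, replicate 2, held 19. Igf2r had a log2 change of -1.07 (SE 0.26), with an adjusted p of 0.0560 in edgeR and 0.0132 in DESeq2, so that DESeq2 called 2 of the 7 lower and limma 0. Without library HPC 3, which enters the shared estimate of spread, the edgeR values were 0.0438 for Grb10 and 0.0220 for Igf2r. Over all left-out libraries, the edgeR adjusted p reached 0.294 for Grb10 and 0.209 for Igf2r. Adjusted p-values in edgeR were 0.157 for Plagl1 (log2 change 0.25, SE 0.08), 0.221 for Gnas (-0.23, SE 0.09), 0.580 for Ndn (-1.88, SE 1.56), 0.614 for Impact (0.12, SE 0.11) and 0.872 for Cdkn1c (-0.09, SE 0.22). The median change of the 7 was -0.23, against 0.00 over all genes.

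Neighbours in the same imprinted clusters were compared next, over a list of 56 other genes reported as imprinted in mouse in at least 1 tissue. Of these 40 were in the table, 27 were tested, and 16 were not analysed here. In early LP 10 of the 27 were higher than HPC, 8 lower and 9 not called, and in median LP the counts were 9, 8 and 10 by edgeR's adjusted p. Called in either direction were thus 18 and 17 of 27, where 73.2% and 73.8% of all tested genes were called. Median log2 changes were 0.02 and 0.01, against -0.04 over all genes. In median against early LP none of the 27 was called by edgeR, DESeq2 called 1 higher and 3 lower, and limma 0. At an unadjusted p under 0.05 in edgeR's test there were 7, a count with no share over all genes to set it against.

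Counts by cluster include the chosen genes Igf2r, Cdkn1c, Ndn and Gnas. They stand beside 73.2% (early) and 73.8% (median) of all tested genes called against HPC. In the Igf2r cluster both tested genes, Igf2r and Slc22a3, were lower. Slc22a3, an organic cation transporter that is imprinted in placenta, fell from 69.5 ± 8.04 CPM in HPC to 0.555 ± 0.259 in early and 0.178 ± 0.0348 in median LP. Its log2 changes were -6.97 (SE 0.19) and -8.50 (SE 0.22), with edgeR adjusted p of 2.70e-11 and 1.91e-11. Slc22a3 passed the filter on low counts through HPC, so it could be called lower but not higher. Airn, the noncoding RNA known for silencing this cluster on the paternal copy, was low throughout, at 29 fragments in HPC, 0 in early and 1 in median LP. Igf2r, Slc22a3 and Airn thus stood higher in HPC than in LP. Airn rests on few fragments, and its reads cannot be told apart from those of Igf2r where they overlap.

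In the Kcnq1 cluster, which holds Cdkn1c, 6 of 10 tested genes were higher in both LP groups, 3 lower and 1 not called. Over all tested genes 35.3% were higher and 37.9% lower in early LP, and 36.0% and 37.7% in median LP. Ascl2, a basic helix-loop-helix factor of placenta and intestinal stem cells, rose from 0.606 ± 0.0782 CPM to 14.5 ± 1.83 and 14.0 ± 0.933, by a log2 change of 4.58 and 4.53 (SE 0.17 each, edgeR adjusted p 3.53e-10 and 3.85e-10). Osbpl5 rose from 8.78 ± 0.556 CPM to 22.9 ± 1.01 and 22.6 ± 1.34. Slc22a18 rose from 1.90 ± 0.360 CPM to 6.44 ± 0.708 and 6.03 ± 0.381. Against this direction, Phlda2, a brake on placental growth that lies next to Slc22a18, went from 1.43 ± 0.209 CPM in HPC to 0 in all LP libraries, at least 32.0-fold and 35.5-fold lower. Phlda2 passed the filter on low counts through HPC. The noncoding RNA of the cluster, Kcnq1ot1, known for silencing it on the paternal copy, stood at 7.94 ± 3.93, 7.43 ± 0.471 and 7.82 ± 2.48 CPM and was not called (edgeR adjusted p 0.826 and 0.966). So neighbours of Cdkn1c differed in direction, as did genes over the whole fit, and nothing more is read from the counts.

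In the Necdin cluster 2 of the 3 tested genes were lower, Ndn and Peg12, and Ube3a was not called. Ndn and Peg12 passed the filter on low counts through HPC, so they could be called lower but not higher. Peg12 fell from 4.01 ± 0.405 CPM to 0.0292 ± 0.0264 and 0.0128 ± 0.0222. Mkrn3 and Snrpn were too low to test, with 57, 2 and 0 and with 4, 0 and 0 fragments in HPC, early and median LP. In the Dlk1-Meg3 cluster no gene could be tested, as Dlk1 gave 6 fragments in HPC and none in LP, and Rian 1 in each group. All 3 tested genes of the Peg10 cluster, which holds none of the 10 genes, were lower. These were Peg10, Sgce and Ppp1r9a, which passed the filter on low counts through their level in HPC. They could thus be called lower but not higher, and nothing is read from that count. Among them Ppp1r9a, which encodes an actin-binding protein, fell from 39.9 ± 10.7 CPM to 0.343 ± 0.0788 and 0.245 ± 0.212 (log2 change -6.86, SE 0.33, and -7.32, SE 0.35). Peg10 itself, at 131 fragments in HPC, was at 0 in LP, at least 36.8-fold and 40.8-fold lower.

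**Figure D4:**
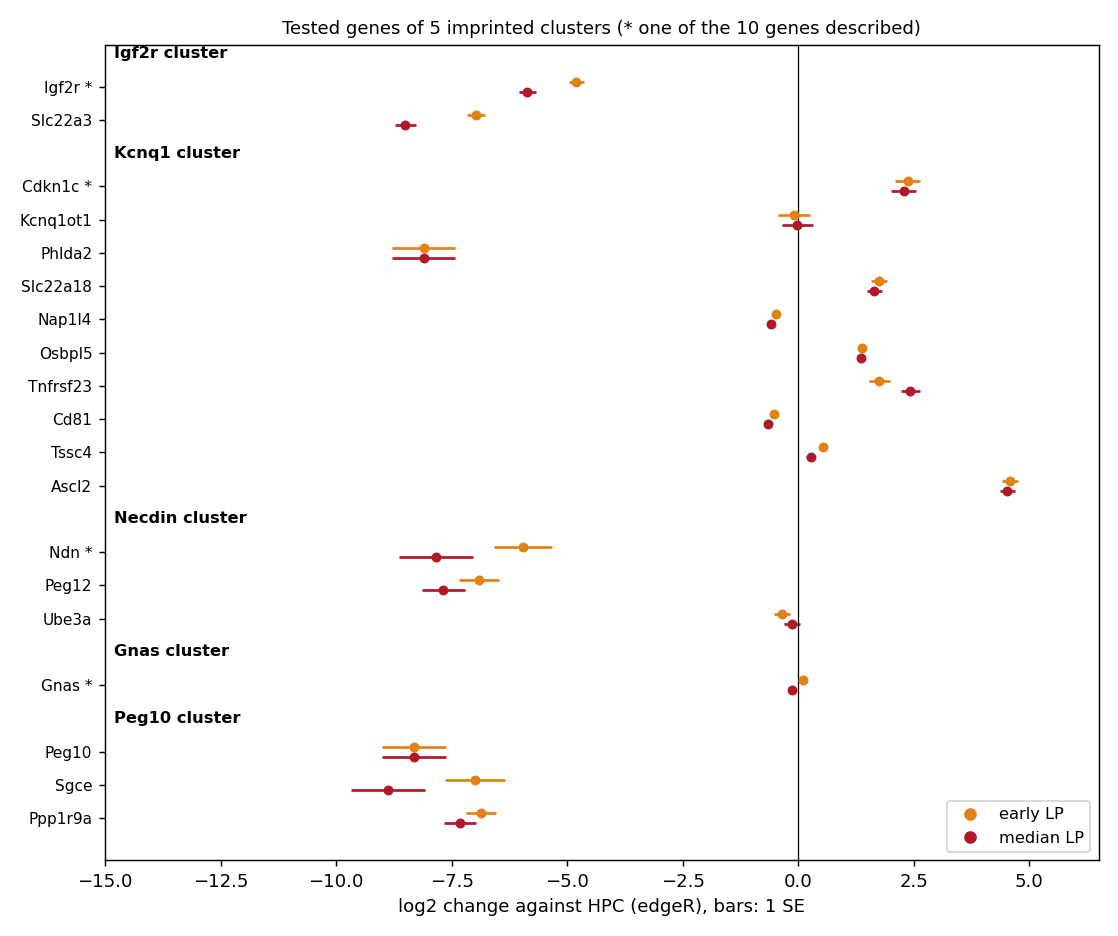
Log2 change against HPC (edgeR, bars of 1 SE) of the tested genes of 5 imprinted clusters, for early LP and median LP, with asterisks on members of the 10 genes described. All tested genes of the Igf2r and Peg10 clusters lie left of 0, while the Kcnq1 cluster runs from -8.10 (Phlda2, at 0 in LP, where the fitted value depends on the prior count) to 4.58 (Ascl2). The Peg10 cluster genes, Slc22a3, Ndn, Peg12 and Phlda2 passed the filter on low counts through HPC.

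The receptors and adaptors that Grb10 acts with were followed in a list of 20 genes, of which 16 were tested. Against HPC 5 were higher and 8 lower in both LP groups, and 3 were not called. The 13 called of 16 stand beside 73.2% (early) and 73.8% (median) over all tested genes. Grb14, the paralog of Grb10 in the same adaptor family and also an inhibitor of the insulin receptor, went the opposite way to Grb10. HPC held 0.217 ± 0.126 CPM, early LP 59.3 ± 2.34 and median LP 44.7 ± 2.26. That is 274-fold (171 to 471) and 207-fold (129 to 357) above HPC in fragments, with log2 changes of 7.97 and 7.56 (SE 0.16 each) and edgeR adjusted p of 4.49e-12 and 5.42e-12. Grb14 passed the filter on low counts through its level in LP, so against HPC it could be called higher but not lower. Grb14 was also the only gene of the list called in median against early LP, lower by a log2 change of -0.41 (SE 0.08, edgeR adjusted p 0.0303). DESeq2 called 1 gene of the list lower in that comparison, and limma 0. Per length, HPC held Grb10 at 12.4 FPKM against Grb14 at 0.0996. In early LP the order was reversed, with Grb14 at 26.7 and Grb10 at 0.0653 FPKM, and in median LP they were at 19.7 and 0.00690 FPKM.

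Kit, the stem cell factor receptor, fell from 437 ± 23.1 CPM to 251 ± 0.937 and 247 ± 8.80 (log2 change -0.80 and -0.82, SE 0.06 each). Flt3, a receptor of multipotent progenitors, fell from 77.0 ± 16.1 CPM to 1.35 ± 0.124 and 0.897 ± 0.288. Nedd4, the ubiquitin ligase that Grb10 recruits to the IGF1 receptor, fell from 625 ± 41.1 CPM to 266 ± 16.3 and 284 ± 2.97. For these 3 genes and Grb14 the edgeR adjusted p in median LP against HPC was at most 2.44e-07. The direct targets of Grb10, Igf1r and Insr, were looked up after their values were known. Igf1r rose from 104 ± 20.04 CPM to 135 ± 3.70 and 146 ± 8.75 (log2 change 0.36 and 0.48, SE 0.12 each, edgeR adjusted p 0.0145 and 0.00293). Insr rose from 53.5 ± 9.55 CPM to 126 ± 15.4 and 139 ± 12.5 (log2 change 1.24 and 1.38, SE 0.13 each). Insr lies on chromosome 8, where the median log2 change over tested genes was 0.53 in early and 0.51 in median LP, and the part of that shift in its value was not tested.

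The kinase inhibitors and cyclins around Cdkn1c made up a list of 16 genes, of which 15 were tested. In early LP 4 were higher than HPC and 7 lower, and in median LP 6 and 6. These 11 and 12 of 15 were close to the 73.2% and 73.8% called over all genes. Cdkn1a, the Cip/Kip relative of Cdkn1c and a target of p53, rose from 8.62 ± 0.444 CPM to 39.4 ± 2.82 and 73.6 ± 6.13. Unlike Cdkn1c it was also higher in median than in early LP, by a log2 change of 0.90 (SE 0.08, edgeR adjusted p 0.000257), and so was Cdkn1b, at 46.5 ± 1.90 against 37.1 ± 2.26 CPM (0.33, SE 0.07, edgeR adjusted p 0.0284). These were the 2 genes of the list called higher there by edgeR, and DESeq2 called 3 and limma 1. Whether these changes differ from that of Cdkn1c was not tested. Among the cyclins, Ccnd2 fell from 101 ± 12.9 CPM to 0.609 ± 0.0961 and 0.732 ± 0.112. Ccnd1 fell from 5.41 ± 0.451 CPM to 0.712 ± 0.272 and 0.485 ± 0.149, and Ccne1 from 84.9 ± 3.23 CPM to 29.9 ± 1.30 and 26.0 ± 1.53.

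**Figure D5:**
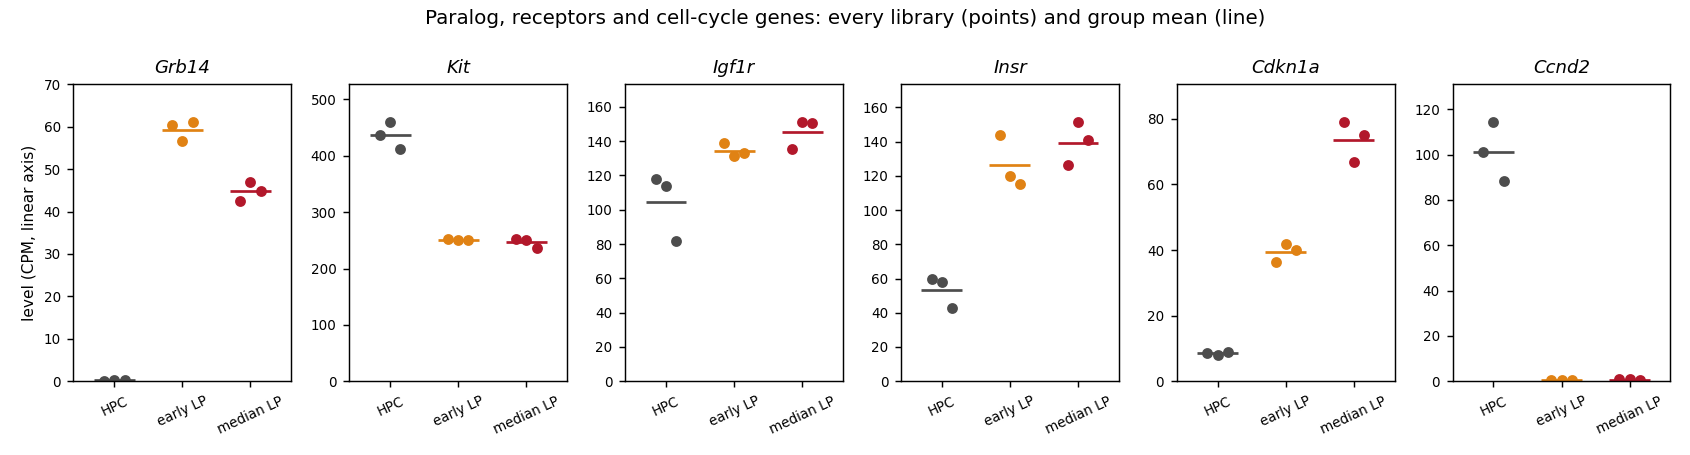
Level in CPM (linear axis from 0, a scale of its own in each panel) of Grb14, Kit, Igf1r, Insr, Cdkn1a and Ccnd2 in HPC, early LP and median LP, with each library as a point and the group mean as a line (n = 3). Grb14 is near 0 in HPC and at 44.7 to 59.3 CPM on average in LP, Ccnd2 shows the reverse, and Cdkn1a rises in steps from HPC to early to median LP.

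Of 16 factors that lay down, keep or remove methylation imprints 15 were tested, and in both LP groups 3 were higher and 9 lower than HPC. Over all genes 73.2% were called in early LP (37.9% lower) and 73.8% in median LP (37.7% lower). Dnmt3l, the cofactor that helps to set imprints in germ cells, rose from 0.160 ± 0.107 CPM to 10.5 ± 1.11 and 10.8 ± 0.669 (log2 change 5.97 and 6.0, SE 0.24 each). Dnmt3l passed the filter on low counts through its level in LP, so it could be called higher but not lower. Its enzyme partners moved the other way, with Dnmt3a going from 77.4 ± 6.73 CPM to 23.3 ± 0.851 and 25.4 ± 2.66, and Dnmt3b from 67.0 ± 2.17 CPM to 24.4 ± 1.85 and 21.7 ± 1.38. Tet1, which oxidises methylated cytosine, fell from 19.1 ± 4.64 CPM to 0.448 ± 0.0321 and 0.273 ± 0.0702. The edgeR adjusted p of these 4 was at most 1.17e-08 in median LP against HPC. Methylation itself was not measured.

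Downstream of Gnas, all 19 genes of a Gs and cAMP list were tested. Against HPC 6 were higher and 9 lower in early LP, and 5 and 9 in median LP, again near the 73.2% and 73.8% called over all genes. The adenylyl cyclases moved in opposite directions, with Adcy6 at 76.3 ± 2.04, 7.82 ± 0.958 and 8.03 ± 0.593 CPM and Adcy3 at 3.36 ± 0.494, 48.4 ± 4.0 and 43.0 ± 2.50 CPM in HPC, early and median LP. Prkar2b, a regulatory subunit of protein kinase A, fell from 202 ± 5.32 CPM to 62.9 ± 1.28 and 62.5 ± 3.85. Gng2, a G protein gamma subunit, fell from 40.4 ± 1.06 CPM to 8.72 ± 0.630 and 7.93 ± 0.981. The edgeR adjusted p of these 4 was at most 9.99e-10 in median LP against HPC.

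In the arm that Impact restrains, all 10 listed genes were tested, with 4 higher and 2 lower in early LP and 4 higher and 3 lower in median LP, beside 73.2% and 73.8% called over all genes. Atf4, the transcription factor made when eIF2alpha is phosphorylated, rose from 211 ± 23.7 CPM to 479 ± 49.1 and 522 ± 31.7. It lies on chromosome 15, where the median log2 change was 0.53 and 0.51, against its own 1.18 and 1.30 (SE 0.10 each). Known targets of Atf4 differed among themselves. Chac1 went from 0.356 ± 0.0711 CPM to 8.41 ± 0.507 and 8.21 ± 1.23, and Trib3 from 0.174 ± 0.0854 CPM to 4.71 ± 0.656 and 5.75 ± 1.21. Chac1 and Trib3 passed the filter on low counts through LP, so they could be called higher but not lower. Asns, asparagine synthetase and also a target, was not called, at 113 ± 8.34, 92.9 ± 4.90 and 107 ± 20.8 CPM. Ppp1r15a, the phosphatase subunit that reverses the response, was at 70.1 ± 16.5, 51.8 ± 11.9 and 31.2 ± 5.95 CPM and was called lower in median LP alone (edgeR adjusted p 0.0620 in early and 0.000226 in median LP). The kinase gene itself, Eif2ak4, was not called, like Impact.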

How the data were processed

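RNA of sorted cells was extracted with Trizol and made into Illumina TruSeq libraries, per the labels' protocols. The submitters' processing notes name TopHat2 2.0.6 and mm10, and which counting program, strand setting and annotation release went with them is not given in the sources used here. The authors deposited estimated counts and FPKM per RefSeq transcript, with 1 column of each per library, per the file headers. The deposited estimated counts are not whole. Low gene sums (up to 50) were multiples of 1 step per library, whole within 0.05 for 90.8 to 92.1% of sums, and division by the step gave recovered fragments, 20.6 to 28.4 M (mega) per library.

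Transcripts were summed by symbol, rounded to whole numbers and fitted in edgeR 4.0.16 (R 4.3.3; TMM, filterByExpr, quasi-likelihood test, all 9 libraries in 1 fit, Benjamini-Hochberg adjustment over 12837 genes, two-sided, threshold 0.05), with a common biological coefficient of variation of 9.81%. The script was tested on simulated data. Alternatives used DESeq2 1.42.0, limma 3.58.1 on log2(FPKM + 0.1) or log2(FPKM + 1), upper quartile scaling, no filter, a replicate block, a covariate for transcript length, the 2 groups alone, recovered fragments, the highest transcript of a gene, and each library left out. Fold bounds use a floor of 3 fragments over a group, and intervals are exact (Clopper-Pearson) at 95%.

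The 10 genes and all lists were chosen with earlier results of these data known, and the grouping into clusters was made after values were seen. Named genes are the 10, up to 4 of each other list with the smallest adjusted p in median LP against HPC and at least 5 CPM in a group, cluster neighbours, and the 5 nearest profiles. Same-numbered libraries did not pair: deviations from group means correlated at -0.33 to 0.19.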

Additional observations from a re-analysis of the deposited data

How the results depend on the processing

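Against HPC, where the choice of genes fixed the direction of Grb10, the change of Grb10 in early LP ran from -8.25 to -3.65 over the 19 alternatives, that of Ndn from -7.83 to -0.79, of Igf2r from -4.91 to -1.89, of Cdkn1c from 1.02 to 2.65 and of Plagl1 from 1.98 to 3.74. The smallest change of each gene came from limma on log2(FPKM + 1). With limma on log2(FPKM + 0.1) they were -6.27, -2.97, -3.94, 2.07 and 3.28 in the same order. For Impact in median LP against HPC the change was 0.00, 0.10 and 0.02 without HPC replicate 1, HPC replicate 2 and median LP replicate 2 (range over left-out libraries -0.15 to 0.10). In median against early LP, Cdkn1c ran from -0.20 to 0.06 and Ndn from -2.34 to 0.00 when a library was left out. In that comparison, where edgeR called none of the 10 genes, those called lower were 2 with DESeq2, 1 each with no filter, only the 2 groups, recovered fragments or upper quartile scaling, 3 with the transcript length covariate (which also gave 1 higher), and 0 to 2 without a library. Other imprinted genes called were 1 higher and 3 lower with DESeq2, 1 and 2 with only the 2 groups, 1 and 3 with the length covariate, and 0 to 1 and 0 to 2 without a library. The cause of these shifts was not tested.

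Over all genes, calls in median against early LP (190 higher, 128 lower) became 325 and 251 with DESeq2, 362 and 243 with only the 2 groups, 744 and 581 with the length covariate, 137 and 75 with the highest transcript, 121 and 109 with limma at a pseudocount of 0.1, and 391 and 296 without HPC replicate 3. Leaving out an LP library gave 66 to 133 higher and 39 to 77 lower, fewer in each of the 6 cases. The replicate block left the calls of the 10 genes at 2 higher and 3 lower against HPC and at 0 between LP groups, and moved the count over all genes between LP groups to 130 and 62. With the block none of the receptor and adaptor list was called between LP groups, which ends the call of Grb14. Each library's best match in another group had its own number in 3 of 18 cases, so the numbers were not taken as a pairing. Depth limits H19, Peg3, Meg3, Ndn in LP and Grb10 in median LP, which held 6 fragments or fewer in a group. The same holds for the XL start of Gnas in LP.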

Other observations

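The following imprinted genes outside the clusters described above were picked after their values were seen. Zrsr1, which encodes a splicing factor related protein, rose from 10.7 ± 1.38 CPM in HPC to 18.0 ± 0.959 in early and 22.3 ± 2.20 in median LP (log2 change 0.76 and 1.06, SE 0.11 each, edgeR adjusted p 7.24e-05 and 3.82e-06). Blcap rose from 20.1 ± 2.28 CPM to 24.6 ± 1.14 and 26.8 ± 0.558 (log2 change 0.29 and 0.41, SE 0.09 each). Mest, a paternally expressed gene of the hydrolase family, was not called, at 2.47 ± 0.556, 2.75 ± 0.345 and 2.49 ± 0.187 CPM. Peg13, a noncoding RNA on chromosome 15, rose from 37.4 ± 3.22 CPM to 54.1 ± 3.54 and 54.0 ± 6.32, by a log2 change of 0.53 in both LP groups (SE 0.09 each). The median log2 change of tested genes on chromosome 15 was 0.53 and 0.51, and its part in the value of Peg13 was not tested. Trappc9, which shares the region with Peg13, was not called (0.02 and -0.16, SE 0.07 each).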
